A study of Homo sapiens with 15 samples.

Results

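The mRNAs of 8 genes of cholesterol and fatty acid synthesis were followed in a human embryonic kidney cell line, HEK-293 Trex, in which doxycycline switches on a CLIP-tagged transgene. The genes were chosen by name as HMGCS1, IDI1, FDPS, FDFT1, SQLE, INSIG1, FASN and SCD, and all 8 were among the 12261 genes of the deposited table. The tagged proteins were GFP and, in 2 further lines, isoforms 1 and 2 of UPF1, here UPF1-1 and UPF1-2, and every line received 200 ng/mL doxycycline hyclate. UPF1 is an RNA helicase of nonsense-mediated decay, and its isoforms here differ in a regulatory loop. Libraries were made from total RNA of the 3 lines after removal of ribosomal RNA, and from RNA affinity-purified with either tagged UPF1 (IP), with 3 libraries in each of the 5 groups and 15 in all. Since each protein had its own line, a difference between lines and an effect of the protein cannot be told apart. No purification from GFP cells was analysed here, so recovery in an IP is relative to total RNA of the same line. In these bulk samples, fewer cells expressing a gene and less RNA per cell cannot be told apart.

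Cholesterol is built from acetyl-CoA through the mevalonate pathway. HMGCS1 makes HMG-CoA, IDI1 interconverts the isoprene units, FDPS joins them to farnesyl diphosphate, FDFT1 joins 2 farnesyl units to squalene, and SQLE oxidises squalene on the way to the sterol rings. FASN builds palmitate, and SCD puts a double bond into saturated fatty acids. These genes are textbook targets of SREBP transcription factors. When sterols are abundant, INSIG1, itself such a target, holds the SREBP escort SCAP in the endoplasmic reticulum, so that SREBP is not cleaved and the pathway is turned down.

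The stretch just upstream of the start of transcription is shown for 4 of the genes, because SREBP is known to act there beside the factors NF-Y and Sp1. RefSeq windows (GRCh38.p14) of 250 bases before the start were matched by symbol for 5 of the 8 genes, namely FDPS, HMGCS1, IDI1, INSIG1 and SCD, and FASN, FDFT1 and SQLE are named only. Each is written 5′ to 3′ on the gene's strand, and capitals mark every match to the NF-Y box CCAAT or the Sp1 box GGGCGG on either strand, where the reverse strand reads ATTGG or CCGCCC. Adjoining matches run together.
HMGCS1, chr5:43313413-43313662, minus strand: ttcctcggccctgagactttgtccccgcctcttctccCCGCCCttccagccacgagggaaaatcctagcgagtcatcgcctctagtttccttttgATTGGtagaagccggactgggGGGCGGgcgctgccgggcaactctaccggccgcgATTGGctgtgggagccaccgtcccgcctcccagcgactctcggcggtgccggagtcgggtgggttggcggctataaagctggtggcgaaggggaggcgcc
SCD, chr10:100346983-100347232, plus strand: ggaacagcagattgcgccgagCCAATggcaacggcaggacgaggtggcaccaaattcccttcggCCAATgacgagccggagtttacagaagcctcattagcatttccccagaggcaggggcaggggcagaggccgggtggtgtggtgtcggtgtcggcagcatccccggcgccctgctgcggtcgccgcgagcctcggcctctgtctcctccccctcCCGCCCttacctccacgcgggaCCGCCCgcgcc
FDPS, chr1:155308616-155308865, plus strand: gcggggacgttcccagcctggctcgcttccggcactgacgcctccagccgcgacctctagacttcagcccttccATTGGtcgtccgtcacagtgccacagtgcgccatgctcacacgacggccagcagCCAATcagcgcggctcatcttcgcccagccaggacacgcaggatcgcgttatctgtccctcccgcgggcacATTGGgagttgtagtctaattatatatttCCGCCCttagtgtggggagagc
INSIG1, chr7:155297628-155297877, plus strand: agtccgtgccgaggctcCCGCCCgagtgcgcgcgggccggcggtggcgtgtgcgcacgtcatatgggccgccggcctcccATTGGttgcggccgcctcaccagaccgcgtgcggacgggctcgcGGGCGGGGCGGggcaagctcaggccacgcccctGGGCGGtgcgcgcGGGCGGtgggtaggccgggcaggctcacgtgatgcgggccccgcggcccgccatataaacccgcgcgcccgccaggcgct

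The 5 genes had 8 windows in all, since HMGCS1 had 2 and IDI1 had 3, one for each start of transcription listed. CCAAT was in 6 of the 8 windows and GGGCGG in 8 of 8, and each of the 5 genes held both in at least 1 window. Of 35114 windows of the same length, 32.0% held CCAAT and 42.6% held GGGCGG, and among the windows of genes in the deposited table these shares were 33.4% and 64.6%. Counted from the start of transcription, the CCAAT matches of FDPS begin at -176, -122 and -51, those of HMGCS1 at -155 and -100, those of SCD at -229 and -186, and that of INSIG1 at -170. A core of the sterol regulatory element, written TCACNCCAC and searched on both strands, was in 0 of the 8 windows and in 0.883% of all windows. These letters were therefore rare everywhere and not in these windows, which does not bear on binding by SREBP.

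In total RNA the 12261 listed genes held 12.2 to 19.0% of the TPM scale (a level scaled to transcript length and library total), against 44.7 to 69.9% in the IPs, and the median gene was at 1.39 to 2.96 TPM in total RNA and 10.9 to 19.9 TPM in the IPs. UPF1 itself averaged 5.20 ± 2.93 TPM (SD, n = 3) in total RNA of GFP cells, 129 ± 49.8 TPM with UPF1-1 and 104 ± 57.9 TPM with UPF1-2. Of 7 HEK-293 markers, 5 were listed (NEFL, VIM, KRT8, KRT18 and LIN28B) and PAX2 and NEFM were not. The summed level of those listed was 153 to 273 TPM in total RNA. Most of this was VIM, at 113 to 184 TPM, and none of the others exceeded 42.0 TPM. For hepatocytes, adipocytes and adrenal steroid cells, in which these pathways are prominent, 0 of 5, 0 of 4 and 0 of 4 markers were listed. Replicate 3 of every group stood apart. The SD across genes of the log2 difference was 0.16 to 0.24 between replicates 1 and 2, and 0.47 to 0.71 when replicate 3 was compared with either.

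FDFT1 had the highest mean level of the 8 genes in all 3 total RNA groups, followed by FDPS, IDI1, FASN, INSIG1, HMGCS1, SCD and SQLE. In GFP cells FDFT1 averaged 37.3 TPM, at the 95.9th percentile of all genes, and SQLE 3.67 TPM, at the 67.7th. The order of neighbours was firm at the low end, where HMGCS1 stood above SCD and SCD above SQLE in 3 of 3 libraries of every total RNA group. FASN exceeded INSIG1 in only 1 of 3 libraries of each total RNA group, so this pair did not differ beyond the spread. FDPS exceeded IDI1 in 1 of 3 GFP libraries and in 2 of 3 with either UPF1 isoform.

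**Figure D1:**
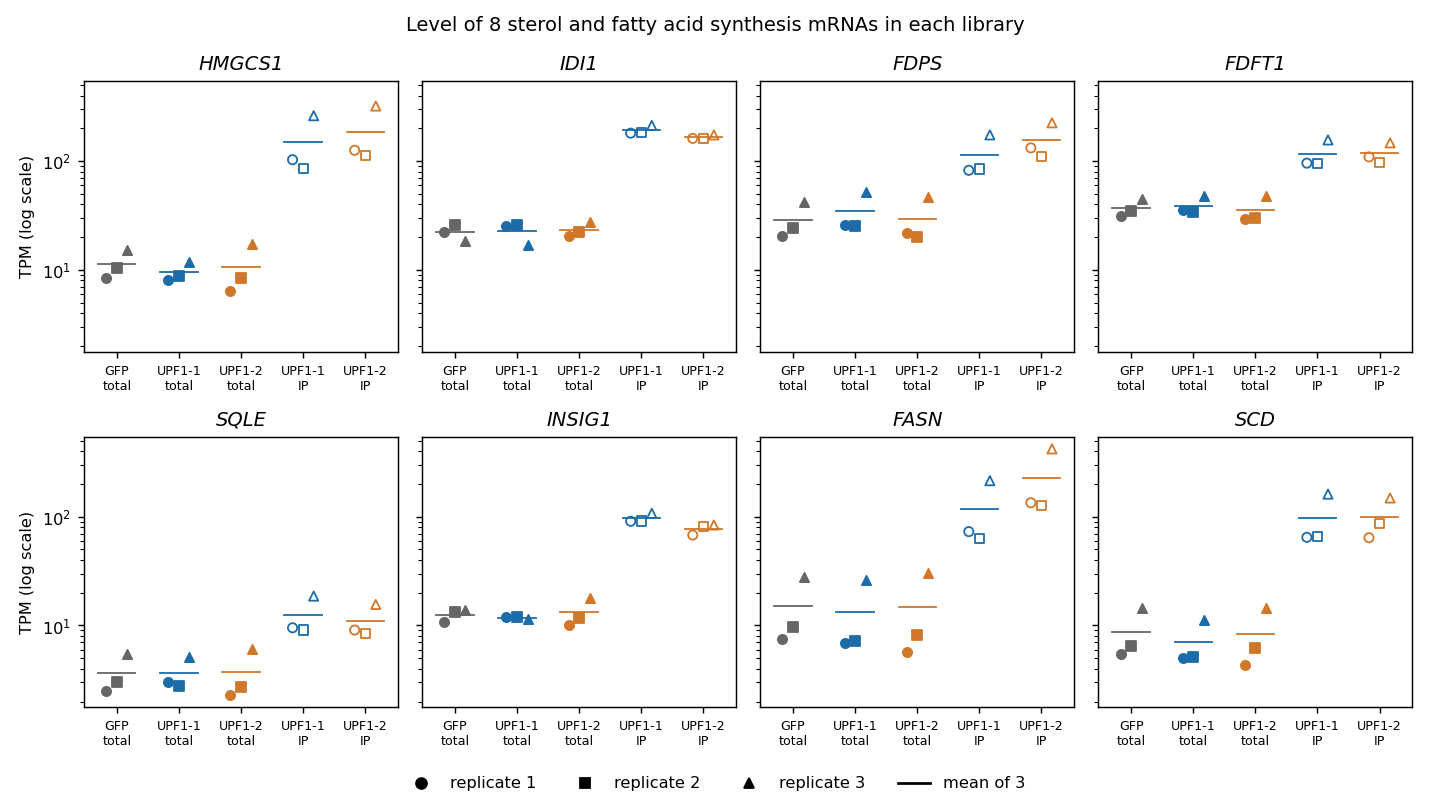
TPM of the 8 genes on a log axis in every library, by group, with points shaped by replicate and a line at the group mean. The total RNA levels lie between 2.29 and 52.0 TPM, all IP levels of a gene lie above its total RNA levels, and replicate 3 is the highest FASN library in each group.

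Much of the spread of these genes followed the replicate number. FASN read 7.44, 9.66 and 28.0 TPM in GFP replicates 1, 2 and 3, 6.90, 7.17 and 26.1 TPM with UPF1-1, and 5.74, 8.17 and 30.5 TPM with UPF1-2. Replicate 3 was therefore the high library in each line and the groups overlapped. With library medians set equal, FASN in replicate 3 stood 1.20 to 1.42 log2 units above the mean of the other replicates in total RNA, and SCD stood 0.58 to 0.73 above. IDI1 went the other way, by -0.98 to -0.50 log2 units, and so did INSIG1, by -0.48 to -0.15. What sets replicate 3 apart was not tested. Comparisons were therefore made within a replicate number, by limma on log2(TPM + 0.5) with the number as a block and library medians set equal.

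The first comparison asked how total RNA differed between UPF1-1 and GFP cells. SCD, HMGCS1 and FASN, the desaturase, an early mevalonate enzyme and the fatty acid synthase, were lower with UPF1-1, at 0.785, 0.809 and 0.817 times the GFP level in the fit, and no member was called higher, where 8.38% of all tested genes were. SCD read 5.52, 6.46 and 14.4 TPM in GFP replicates 1, 2 and 3, and 4.98, 5.14 and 11.2 TPM with UPF1-1. HMGCS1 read 8.49, 10.4 and 15.2 TPM with GFP, and 8.02, 8.81 and 11.9 TPM with UPF1-1. Both genes, and FASN (values above), were lower with UPF1-1 within each of the 3 numbers, although the groups overlapped. On the log2 scale SCD fell by 0.35 ± 0.07 (SE), HMGCS1 fell by 0.31 ± 0.07 and FASN fell by 0.29 ± 0.07, and their limma adjusted p values were 0.012, 0.019 and 0.026. These 3 of 8 genes stand beside 7.79% of the 9325 tested genes called lower and 16.2% called in either direction, and the median change of the 8 was -0.13 against -0.01 over all tested genes.

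The later mevalonate enzymes and INSIG1 did not pass in that comparison. INSIG1 read 10.8, 13.2 and 13.9 TPM with GFP and 12.1, 11.97 and 11.4 TPM with UPF1-1, a log2 change of -0.17 ± 0.08 with a limma adjusted p of 0.15. FDPS, the member with the only positive change, read 20.5, 24.1 and 42.5 TPM with GFP and 26.1, 25.4 and 52.0 TPM with UPF1-1. Its log2 change was 0.15 ± 0.08, with a 95% interval of -0.05 to 0.34, and it was higher within each number. The changes of SQLE (-0.08), IDI1 (-0.06) and FDFT1 (-0.03) were smaller, with limma adjusted p of 0.40, 0.70 and 0.80.

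The 3 calls rested on the block and the equal medians. Without the block the limma adjusted p values were 1, 0.73 and 1 for SCD, HMGCS1 and FASN, without equal medians 0 members were called, and without the libraries of replicate 2 all 3 calls were lost (0.080, 0.14 and 0.22). In the authors' deposited table, from sleuth, 0 of 8 members had a q-value under 0.05 in any of the 3 total RNA comparisons, and the lowest p there was 0.10, for HMGCS1 in UPF1-1 against GFP.

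UPF1-2 against GFP gave no called member, with 2 of 8 at an unadjusted p under 0.05, in a comparison in which limma called 0.375% of 9325 genes, 0.279% higher and 0.0965% lower. HMGCS1 had a log2 change of -0.19 ± 0.07, with a 95% interval of -0.35 to -0.04 and an adjusted p of 0.30. FASN was at -0.18 ± 0.07, with an adjusted p of 0.35, and SCD at -0.15 ± 0.07, with an adjusted p of 0.42. The other 5 lay between -0.11 and 0.06. HMGCS1 read 6.34, 8.40 and 17.4 TPM with UPF1-2 and SCD 4.29, 6.15 and 14.6 TPM, so both were below GFP in replicates 1 and 2 and above it in replicate 3 before medians were set equal. This comparison and that of UPF1-1 share the GFP libraries.

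Compared directly in total RNA, the isoforms also gave 0 called members, with 1 of 8 at an unadjusted p under 0.05, where limma called 9.51% of 9325 genes, 5.49% higher and 4.02% lower with UPF1-1. SCD was lower with UPF1-1 than with UPF1-2 by a log2 difference of -0.20 ± 0.07, with a 95% interval of -0.35 to -0.04 and an adjusted p of 0.10. FDPS had the largest positive difference, 0.19 ± 0.08, with an adjusted p of 0.19, and its interval ran from -0.01 to 0.38. HMGCS1 and FASN were both at -0.11, with intervals of -0.27 to 0.04 and -0.27 to 0.05. A call of these genes with UPF1-1 and not with UPF1-2 is therefore not shown to be a difference between the isoforms.

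**Figure D2:**
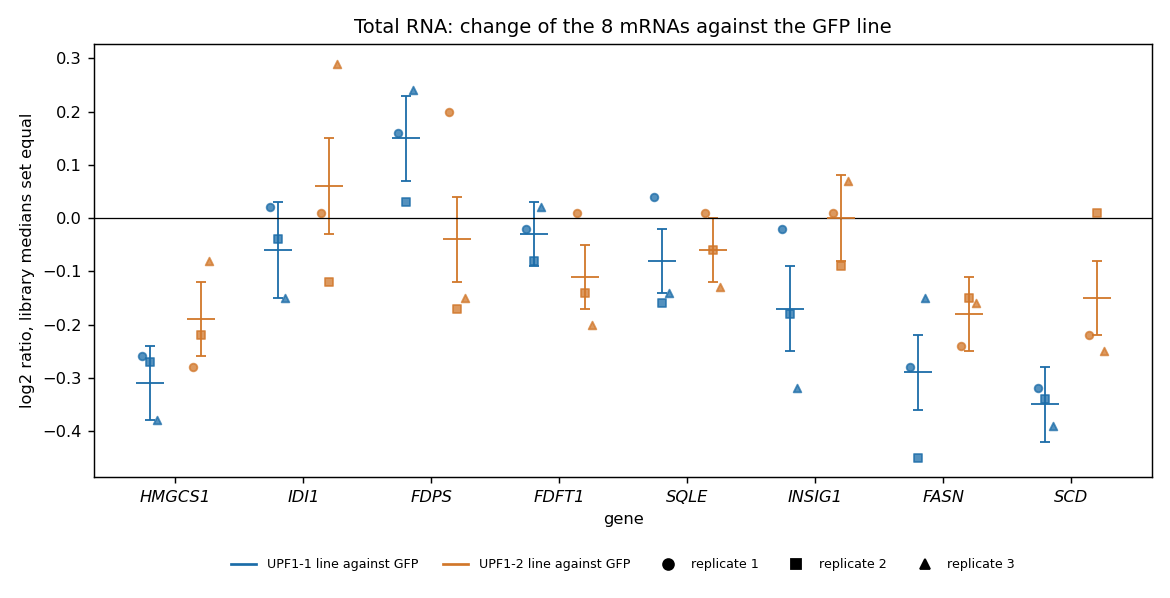
Log2 change of the 8 genes in total RNA with each UPF1 isoform against GFP, with dashes for the blocked limma fit. Bars are 1 SE, and points are the ratios within each replicate number, shaped by replicate. SCD, HMGCS1 and FASN with UPF1-1, at -0.35, -0.31 and -0.29, are the changes with a limma adjusted p under 0.05.

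The second question was how strongly each mRNA was recovered with the tagged UPF1. The raw ratio of IP to total TPM exceeded 1 for all 8 genes in every pair, as it did for the median gene, at 6.58, 6.34 and 7.98 in UPF1-1 replicates 1, 2 and 3 and 7.91, 6.88 and 5.93 with UPF1-2. Recovery below is relative to equal library medians, on which scale the median gene was at -0.16 log2 units with UPF1-1 and -0.15 with UPF1-2. The 8 genes then parted: HMGCS1, SCD and FASN were recovered above most mRNAs, and the squalene enzymes FDFT1 and SQLE below them, with either isoform.

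HMGCS1 rose from 8.02, 8.81 and 11.9 TPM in UPF1-1 total RNA to 103, 86.1 and 262 TPM in its IP, a ratio of 12.9, 9.76 and 21.9. With UPF1-2 it read 126, 113 and 321 TPM in the IP, a ratio of 19.8, 13.5 and 18.4. All of these ratios exceeded that of the median gene in the same pair. Its log2 recovery was 1.18 ± 0.14 with UPF1-1, at the 96.4th percentile of 11969 genes, and 1.49 ± 0.14 with UPF1-2, at the 98.6th, with limma adjusted p of 9.7e-05 and 2.3e-05.

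SCD read 64.6, 65.3 and 161 TPM in the UPF1-1 IP, 13.0, 12.7 and 14.3 times its total RNA level. In the UPF1-2 IP it read 64.1, 86.0 and 149 TPM, 14.9, 14.0 and 10.2 times. The ratios of the isoforms overlapped. Recovery of SCD was 1.07 ± 0.09 with UPF1-1 and 1.06 ± 0.09 with UPF1-2, with limma adjusted p of 9.8e-06 and 1e-05.

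FASN read 72.9, 62.6 and 214 TPM in the UPF1-1 IP, 10.6, 8.73 and 8.22 times its total RNA level. In the UPF1-2 IP it read 134, 128 and 420 TPM, 23.4, 15.6 and 13.8 times. The lowest UPF1-2 ratio was thus above the highest UPF1-1 ratio. Its recovery was 0.56 ± 0.14 with UPF1-1, with a limma adjusted p of 0.0057, and 1.50 ± 0.14 with UPF1-2 (adjusted p 1.8e-05).

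The squalene enzymes lay on the other side. FDFT1, which makes squalene, was the most abundant member in total RNA but its IP level was only 2.72 to 3.30 times higher with UPF1-1 and 3.08 to 3.72 times with UPF1-2. Its recovery was -1.02 ± 0.07 and -0.80 ± 0.07, with limma adjusted p of 3.5e-06 and 1.2e-05. SQLE, which acts next, was at -0.94 ± 0.09 and -1.01 ± 0.09, with limma adjusted p of 1.8e-05 and 1.1e-05. It was the lowest member in all 6 IPs, at 8.47 to 18.6 TPM.

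IDI1, FDPS and INSIG1 lay between these poles, although with UPF1-1 IDI1 was close to FASN and FDPS was close to SQLE. IDI1 was recovered at 0.51 ± 0.09 with UPF1-1 and 0.27 ± 0.09 with UPF1-2, with limma adjusted p of 0.00089 and 0.023. FDPS was below the library median with UPF1-1, at -0.86 ± 0.09 with a limma adjusted p of 4.1e-05, and at -0.11 ± 0.09 with UPF1-2 (adjusted p 0.29). INSIG1 was at 0.41 ± 0.10 with UPF1-1 (adjusted p 0.0047), and at 0.02 ± 0.10 with UPF1-2 (adjusted p 0.84) by limma.

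In all, 5 members were called higher and 3 lower with UPF1-1, where 30.8% and 43.9% of 11969 genes were called in these directions. With UPF1-2, 4 were higher and 2 lower, where the shares were 31.5% and 44.2%. With 74.7% and 75.7% of all genes called in either direction, a call by itself sets no member apart, and the percentiles place the members among all genes. With UPF1-1 these were 96.4 for HMGCS1, 95.2 for SCD, 81.8 for FASN, 79.9 for IDI1 and 75.7 for INSIG1. They were 23.4 for FDPS, 21.4 for SQLE and 19.3 for FDFT1. The place of the members among all genes depends on the pseudocount. Their median was 0.46 with UPF1-1 and 0.15 with UPF1-2, against -0.16 and -0.15 for all genes. A pseudocount of 0.1 gave 0.28 and -0.05, against -0.05 and -0.06. A pseudocount of 1 gave 0.64 and 0.33, against -0.20 and -0.20. Without equal medians all 8 members were above 0, with a median of 3.02 and 2.67 log2 units against 2.40 and 2.38 for all genes. Without the block the calls of FASN, IDI1 and INSIG1 with UPF1-1 and of IDI1 with UPF1-2 were lost, with limma adjusted p of 0.36, 0.16, 0.12 and 0.45. Without replicate 1 INSIG1 with UPF1-1 had an adjusted p of 0.053, and IDI1 with UPF1-2 was not called without replicate 1 (0.16), without replicate 2 (0.12), with upper quartiles set equal (0.60) or with a pseudocount of 0.1 (0.56), settings of which the last pair called FDPS with UPF1-2 lower, at -0.32.

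**Figure D3:**
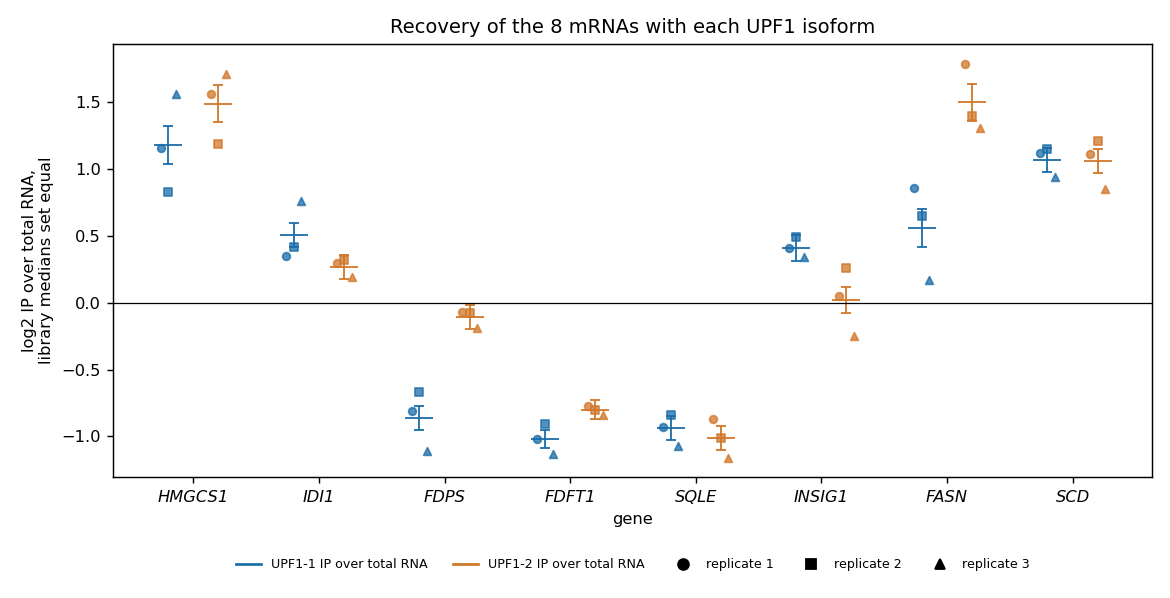
Log2 ratio of IP to total RNA within each replicate number, library medians set equal, for the 8 genes and both isoforms. All points of HMGCS1, SCD and FASN lie above 0, all points of FDFT1 and SQLE below 0, and the isoforms part in FASN and FDPS.

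The third question was whether the isoforms recovered these mRNAs differently, taken as recovery with UPF1-1 minus that with UPF1-2. FASN and FDPS were recovered less with UPF1-1, and no member more. This is 2 of 8 genes, where 6.27% of 11969 genes were called lower, 4.43% higher and 10.7% in either direction. FASN differed by -0.94 ± 0.20 log2 units, with a 95% interval of -1.38 to -0.49 and a limma adjusted p of 0.026, and by -0.92, -0.75 and -1.14 in replicates 1, 2 and 3. FDPS differed by -0.75 ± 0.13, with an interval of -1.05 to -0.46 and an adjusted p of 0.018, and by -0.74, -0.59 and -0.92 in the same replicates. Few genes had more negative differences, as FASN was at percentile 0.3 of all 11969 and FDPS at percentile 0.9.

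FDPS read 82.4, 84.8 and 174 TPM in the UPF1-1 IP, 3.15, 3.34 and 3.35 times its total RNA level. In the UPF1-2 IP it read 132, 109.7 and 225 TPM, 6.08, 5.43 and 4.84 times. As for FASN, the ratios of the isoforms did not overlap.

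HMGCS1 differed by -0.31 ± 0.20, with a limma adjusted p of 0.35 and a 95% interval of -0.77 to 0.16. FDFT1 was at -0.22 ± 0.10, with an adjusted p of 0.19, and IDI1 at 0.24 ± 0.13, with an adjusted p of 0.25. INSIG1 had the most positive difference, 0.39 ± 0.14, with an interval of 0.07 to 0.71 and a limma adjusted p of 0.11. SCD and SQLE differed by 0.02 ± 0.13 and 0.07 ± 0.12, and their intervals ran from -0.27 to 0.30 and from -0.21 to 0.35.

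The FASN and FDPS differences ranged from -1.02 to -0.83 and from -0.82 to -0.66 over the 10 other settings tried, but the calls were not kept in all of them. Limma called 0 of the genes tested without the block (846 at an unadjusted p under 0.05), without equal medians, without replicate 1 or without replicate 2, where the adjusted p was 0.90, 0.13, 0.29 and 0.078 for FASN and 0.61, 0.13, 0.29 and 0.069 for FDPS. Both remained called without replicate 3, and with upper quartiles set equal INSIG1 was called as well, higher with UPF1-1 by 0.48 with an adjusted p of 0.044.

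Other genes of the pathways were taken from lists. Of 16 other cholesterol synthesis enzymes, 14 were listed and tested in the IPs, and limma called 5 higher and 6 lower in the UPF1-1 IP, and 4 and 5 in the UPF1-2 IP. Of all 11969 genes, 30.8% and 43.9% were called in these directions with UPF1-1, and 31.5% and 44.2% with UPF1-2. MVK, the mevalonate kinase, was recovered at 1.32 ± 0.11 and 1.49 ± 0.11, and LSS, which closes the sterol rings after SQLE, at 0.93 ± 0.07 and 1.49 ± 0.07. LSS and the enzyme before it, SQLE, were thus recovered on opposite sides of the library median. A difference between the isoforms was called for 5 of the 14, against 10.7% of all genes, of which ACAT2 (-0.56 ± 0.09), LSS (-0.55 ± 0.10) and NSDHL were lower with UPF1-1 and LBR (0.56 ± 0.12) and SC5D higher.

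Of 19 genes of sterol sensing, uptake and efflux, 16 were tested in the IPs, and limma called 4 higher and 9 lower in the UPF1-1 IP (30.8% and 43.9% of all genes), and 3 and 8 in the UPF1-2 IP (31.5% and 44.2%). Of the SREBP genes, SREBF2 was at 0.04 ± 0.07 and 0.08 ± 0.07 and was not called, while SREBF1 was called higher at 0.23 ± 0.09 and 0.33 ± 0.09, with limma adjusted p of 0.037 and 0.0073. SCAP, their escort, was lower at -0.79 ± 0.14 and -0.65 ± 0.14, and INSIG2, the paralogue of INSIG1, at -0.41 ± 0.12 and -1.04 ± 0.12. Both are low genes. In UPF1-1 and UPF1-2 total RNA, SCAP averaged 0.80 and 0.78 TPM and INSIG2 0.51 and 0.52 TPM. These levels are near the 0.5 added before the log, which lowers such values. With upper quartiles set equal, INSIG2 with UPF1-1 was at 0.20, so its lower recovery there depends on the scaling. STARD4, a sterol carrier, reached 1.54 ± 0.10 and 1.18 ± 0.10, whereas NPC2, the lysosomal sterol binder, was at -2.18 ± 0.19 and -2.41 ± 0.19. RNF139 was the 1 gene of this list with a called difference between isoforms, and was higher with UPF1-1.

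Of 27 other genes of fatty acid synthesis, elongation and desaturation, 21 were tested in the IPs, and limma called 7 higher and 3 lower in the UPF1-1 IP (30.8% and 43.9% of all genes), and 9 and 8 in the UPF1-2 IP (31.5% and 44.2%). ACACA, the acetyl-CoA carboxylase that feeds FASN, was recovered at 1.81 ± 0.10 and 2.07 ± 0.10, above 99.7% and 99.9% of genes. TECR, the last enzyme of the elongation cycle, was at -1.71 ± 0.12 and -1.47 ± 0.12. ACLY, which makes the cytosolic acetyl-CoA for both routes, was at 0.21 ± 0.10 with UPF1-1, with a limma adjusted p of 0.082, and 0.91 ± 0.10 with UPF1-2. The isoforms differed by -0.70 ± 0.14 for ACLY and by 0.75 ± 0.11 for the elongase ELOVL2, with limma adjusted p of 0.022 and 0.015, and no other gene of the 21 was called, in a comparison that called 10.7% of all genes.

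**Figure D4:**
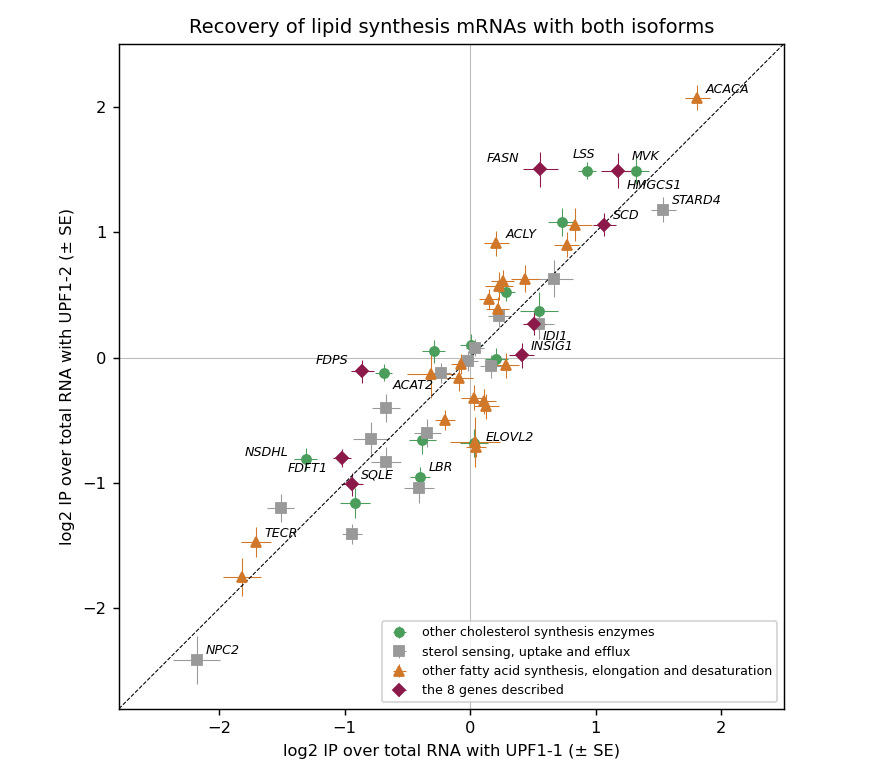
Log2 recovery with UPF1-1 against that with UPF1-2 for the 8 genes and the tested genes of 3 other lists. These are other cholesterol synthesis enzymes, sterol sensing, uptake and efflux, and other fatty acid synthesis, elongation and desaturation. Bars are 1 SE, and a dashed line marks equal recovery. FASN, LSS, ACLY and FDPS lie above the line, toward UPF1-2, and ELOVL2 and LBR below it.

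Total RNA of the other pathway genes was tested in the same fits. With UPF1-1 against GFP, limma called 1 of 13 tested cholesterol enzymes (MVD, higher by 0.40 ± 0.08), 1 of 11 sensing genes (MBTPS2, lower) and 3 of 16 fatty acid genes (ACSS2 higher, ACSL1 and ACSL3 lower), where 16.2% of all genes were called. Between the isoforms HSD17B7, MVD, NR1H2 and ACSS2 were higher with UPF1-1, where 9.51% of all genes were called. With UPF1-2 against GFP, 0 genes of these lists were called. MVD, HSD17B7, MBTPS2, NR1H2, ACSS2, ACSL1, ACSL3, NSDHL, SC5D and RNF139 are named here after their values were seen, because the counts were small.

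The average profile of the 8 genes after removal of the replicate effect was compared with that of every other gene by Pearson's r, as a description. Over the 9 total RNA libraries the most alike of 3248 genes were SUPT16H (r = 0.978), GART (0.966), UBE2N (0.964), DHX9 (0.962) and HOXD13 (0.956). Over the 12 libraries of the IP fit the most alike of 7873 genes were HIBCH (0.998), HIRA (0.997), SLC35C2 (0.996), ANAPC1 (0.993) and PEX3 (0.992).

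The members were not uniform. In total RNA HMGCS1 (r = 0.84), FASN (0.77), SQLE (0.75) and SCD (0.75) tracked the mean of the other 7, FDFT1 and IDI1 did not (both 0.07), and FDPS ran against it (-0.60). In the IP fit FASN followed the mean of the others most closely (0.93), and SQLE (-0.94) and FDFT1 (-0.91) ran against it. These correlations are over 9 and 12 libraries that share cell lines and replicate numbers, and the profile mixes library types. In the IP fit the IP and total RNA library of a pair mirror each other once the pair's mean is removed. The 12 libraries thus hold fewer independent values. The sign of r there largely restates whether recovery was above or below 0, and is no separate result.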

How the data were processed

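RNA of 15 libraries was sequenced, and the deposited table gave 1 transcript per gene for 12261 genes. Per the file headers its values are TPM, and the deposited IP to total RNA ratio of the 8 genes and UPF1 equalled the recomputed TPM ratio in 54 of 54 values within a relative 1e-06. Cutadapt, kallisto, sleuth and the build hg19 appear in the submitters' processing notes with no version given. No listed gene averaged under 0.25 TPM in a total RNA group. The authors deposited p-values and q-values, log2 fold changes and sleuth effects on a natural log scale, per the file headers, which are quoted only where named. The table gives no depth, so counting error is unknown, and TPM in an IP depends on all other RNA in it.

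The 8 genes, the pathway lists and the fit were chosen with earlier results of these data known. Tests used log2(TPM + 0.5) of genes that reached 1 TPM in 3 or more of the libraries fitted, with library medians set equal. Then limma 3.58.1 (R 4.3.3) was fitted with a trend over 9 total RNA libraries (9325 genes) with the replicate number as a block, or over 12 IP and total RNA libraries (11969 genes) with the pair of isoform and number as a block. The 2-sided p-values were adjusted over all genes tested (Benjamini-Hochberg, threshold 0.05). Fold changes are on the log2(TPM + 0.5) scale, which understates those of low genes in total RNA. In recovery the 0.5 acts otherwise, since IP levels mostly exceeded total RNA levels. There it lowers low genes relative to abundant ones, so a recovery below 0 of a low gene can be overstated. After group means were removed, same-numbered libraries correlated at r of 0.70 to 0.95 (9 pairs) and 0.57 to 0.91 (18 pairs) across genes, so the numbers were used as pairs, as in the deposited ratios. Whether replicates were separate cultures is not given in the sources used here, so the spread behind the p-values may be technical.

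In 5 simulated data sets with 200 changed genes, the fit recovered a median of 78% of 1.5-fold and 96% of 2-fold changes for UPF1-1 against GFP (9325 genes), and 35% and 80% for the isoform difference in recovery (11969 genes), with at most 8.42% and 4.55% of calls in unchanged genes. The simulated noise was the SD around the block means, in the IP set after a recovery common to both isoforms was also removed. It made no allowance for the means removed, but still held the real differences between lines or isoforms. Noise was drawn independently for each gene. The recovered shares may therefore be too high or too low for the real data.

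Named genes were all 8 members, UPF1, a fixed set of pathway genes, some of which are not reported here, and per list and comparison up to 3 called genes with the largest change and a mean of at least 5 TPM. Genes most alike were the 5 with the highest r to the members' mean. Promoter windows came from RefSeq tables (GRCh38.p14), not from the build of the files. Alternatives left out the block, the equal medians, the filter or the libraries of each number, set upper quartiles equal, or used a pseudocount of 0.1 or 1.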

Additional observations from a re-analysis of the deposited data

Results flagged for a closer look

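Between the isoforms in total RNA, limma's test of the difference itself passed for UPF1, 0.31 log2 units higher with UPF1-1. The call was lost under every other setting except a pseudocount of 1 and no filter on low values.

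In recovery, UPF1-1 minus UPF1-2, the test of the difference passed for 10 genes named here. Of the synthesis genes FASN differed by -0.94, FDPS by -0.75, ACLY by -0.70, ACAT2 by -0.56 and LSS by -0.55, all lower with UPF1-1, while LBR differed by 0.56 and ELOVL2 by 0.75, higher with UPF1-1. Of the oxidation genes HADHA differed by -0.65, ETFB by -0.51 and HADHB by -0.48. Each of these 10 had the same sign in all 3 replicate numbers, which adds no support, since the test that selected them used the same ratios. Of the 10, 0 were called without the block, without equal medians, without replicate 1 or without replicate 2. ACLY was also lost without replicate 3, at -0.64 with an adjusted p of 0.057 by limma.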

How the results depend on the processing

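Replicate numbers, used here as pairs, and equal medians carried most total RNA and isoform calls, and the cause of each change below was not tested beyond the setting itself. Genes called by limma with the block and equal medians, without the block, with the block but without equal medians, and with neither numbered 1507, 16, 301 and 2 for UPF1-1 against GFP, 35, 3, 6 and 1 for UPF1-2 against GFP, 887, 0, 89 and 0 between the isoforms in total RNA, and 1280, 0, 0 and 0 for the isoform difference in recovery, where a pseudocount of 1 gave 810. At an unadjusted p under 0.05 the counts of 0 stand beside 477 and 89 genes between the isoforms in total RNA and 846, 1878 and 340 genes for recovery. Members called went from 3 to 0 for UPF1-1 against GFP and from 2 to 0 for the recovery difference in each of these 3 settings, and from 8 to 5 for the UPF1-1 IP without the block. Leaving out the libraries of 1 number gave 206 to 1141 genes and 0 to 3 members for UPF1-1 against GFP (fewest without replicate 2), 3 to 11 genes for UPF1-2, 17 to 451 between the isoforms, 0 to 1104 genes and 0 to 2 members for the recovery difference (0 without replicate 1 or replicate 2), 7352 to 8876 genes and 7 to 8 members for the UPF1-1 IP, and 7506 to 9172 genes and 5 to 6 members for the UPF1-2 IP.

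Scaling also moved the share of calls that were higher. Without equal medians (block kept) it went from 51.8% to 88.4% for UPF1-1 against GFP and from 57.7% to 83.1% between the isoforms. It went from 41.3% to 98.7% in the UPF1-1 IP and from 41.6% to 98.9% in the UPF1-2 IP. For UPF1-2 against GFP it went from 74.3% of only 35 calls to 50.0% of 6. With upper quartiles equal it was 44.1% between the isoforms, 56.0% in the UPF1-1 IP and 62.4% for the recovery difference, against 41.4%.

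Signs turned in IP comparisons, where dropping equal medians raised all genes, with the same values with and without the block. With UPF1-1 this gave FDFT1 1.54, FDPS 1.70, SQLE 1.62, DHCR7 2.27, NSDHL 1.25, INSIG2 2.15, NPC2 0.38, NR1H2 1.89, SCAP 1.77, ELOVL6 2.47, FADS1 2.49, TECR 0.85, ECI1 1.72, ECI2 1.32 and ETFB 0.43 log2 units. With UPF1-2 it gave FDFT1 1.72, FDPS 2.42, SQLE 1.51, EBP 1.37, INSIG2 1.49, NPC2 0.12, SCAP 1.87, ELOVL6 2.37, FADS1 2.48, TECR 1.06, ECI2 1.47 and ETFB 0.91. With upper quartiles equal INSIG2 (0.20) and ELOVL6 (0.52) turned with UPF1-1 and ELOVL6 (0.32) with UPF1-2, and a pseudocount of 0.1 turned ELOVL6 with UPF1-1 (0.37). HMGCS1, SCD and FASN in both IPs kept their direction in all 10 other settings. The settings without equal medians could not have turned them, since they raised all genes, and FASN with UPF1-1 was not called without the block.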

Other observations

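Fatty acid oxidation is the mitochondrial counterpart of synthesis. Of 15 tested oxidation genes, limma called 5 higher and 5 lower in the UPF1-1 IP, where 30.8% and 43.9% of all genes were called, and 9 and 5 in the UPF1-2 IP, where 31.5% and 44.2% were. HADHA and HADHB, the subunits of the trifunctional protein, were at 0.57 ± 0.07 (SE) and 0.45 ± 0.07 log2 units with UPF1-1, and at 1.22 ± 0.07 and 0.93 ± 0.07 with UPF1-2. CPT2, which releases acyl groups inside the mitochondrion, was at 0.39 ± 0.07 and 0.65 ± 0.07.

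The electron transfer flavoprotein stood at the other end, with ETFB at -2.13 ± 0.07 and -1.61 ± 0.07 and ETFA at -0.66 ± 0.07 and -0.62 ± 0.07, although ETFDH, the enzyme that takes up its electrons, was at 0.37 ± 0.07 and 0.55 ± 0.07. The isoform difference was called lower for 3 of the 15 genes (HADHA, ETFB and HADHB), against 6.27% of all genes. It was above 0 for 0 of the 15 and for 5345 of all 11969 genes, with a median of -0.30 against -0.04. In total RNA, ACADVL was the 1 oxidation gene called with UPF1-1 against GFP, higher by 0.29 ± 0.07 with a limma adjusted p of 0.026.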
